A study of Zea mays with 10 samples.

Results

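Nkd1 (GRMZM2G129261, also named IDDveg9) and Nkd2 (GRMZM5G884137, also named IDD9) are the maize naked endosperm duplicates, and both were found by their gene ID, as 2 of the 28580 gene IDs with an expression value. Both had at least 1 RPKM in 3 or more libraries and were among the 18687 genes tested. The duplicates encode transcription factors of the INDETERMINATE-domain family, a plant group of zinc finger proteins. Kernels that lack the function of both genes are known for irregular outer cell layers in which the aleurone, the outermost layer of the endosperm, is patchy. NKD proteins are also reported to activate the promoters of the storage regulator gene o2 and of vp1, a regulator of seed maturation.

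The samples were endosperm dissected from greenhouse kernels 15 days after self-pollination. Wild type was the inbred line B73 (strain label B73, WT below), and the mutant was B73 carrying an o2 mutation (strain label B73o2, o2 below), whose allele the labels do not give. Polyadenylated RNA was sequenced in 3 WT and 3 o2 libraries, which share the B73 background, the tissue and the age. The labels number the replicates but do not tie them to plants or ears, so p-values measure the spread between these libraries, which may be technical. Levels are the deposited RPKM, a unit that scales reads to gene length and sequencing depth. Setting the levels of the duplicates side by side assumes that reads of both were mapped and counted alike. The deposited values summed to 696998 RPKM or more in each WT library and to 264780 RPKM or less in each o2 library. Their medians were alike, between 1.557 and 1.597 RPKM. Scaling to equal sums, as in TPM below, therefore shifts the genotypes against each other. The origin of the unequal sums was not tested. The number of reads behind each value is not known from RPKM. Series of 3 values per genotype are in the order of replicates 1, 2 and 3.

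The mutated gene checked the labels. The o2 gene (GRMZM2G015534), which encodes a bZIP activator of storage protein genes, had 112, 86.1 and 163 RPKM in the WT libraries and 0.212, 0.173 and 0.254 RPKM in the o2 libraries. The RNA libraries held 52906484 to 66795114 reads, of which 54.1% to 72.1% mapped uniquely. The 9 gene IDs found for the starchy endosperm list summed to between 8528 and 22648 RPKM in each of the 6 libraries. In limma 0 of the 9 were called, and 5 had a lower mean in o2. Their log2 fold changes ran from -0.72 for gz27 (GRMZM2G138727) to 1.16 for bt2 (GRMZM2G068506, adjusted p = 0.0700 in limma). WT replicate 3 stood apart. It had the fewest uniquely mapped reads, 28614800, and its 7 basal transfer layer IDs summed to 4.14 RPKM against 71.6 or more in the other WT libraries.

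Nkd1 was the more abundant duplicate in every library. Its level was 18.9, 20.6 and 8.10 RPKM in the WT libraries and 20.9, 19.7 and 22.2 RPKM in the o2 libraries. WT replicate 3 was the only low library, and the other 5 lay within the range of 18.9 to 22.2 RPKM. The genotypes overlapped. The level of Nkd2 was 6.19, 9.49 and 5.30 RPKM in the WT libraries and 2.20, 2.71 and 3.33 RPKM in the o2 libraries. Every o2 library was below every WT library for Nkd2.

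**Figure D1:**
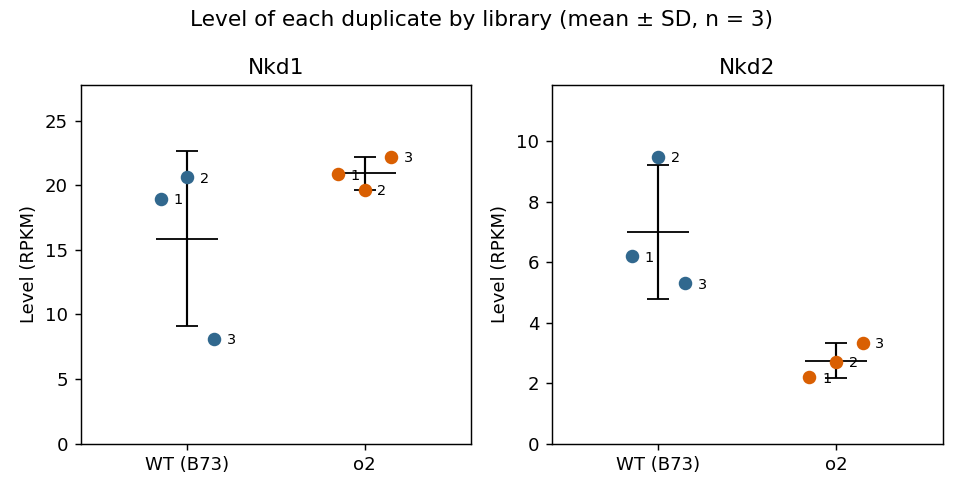
Deposited RPKM of Nkd1 and Nkd2 in each library, with the replicate number beside each point and bars for the mean ± SD (n = 3 per genotype). WT replicate 3 is alone at 8.10 RPKM for Nkd1, and the o2 libraries lie between 2.20 and 3.33 RPKM for Nkd2 while the WT libraries lie at 5.30 RPKM or more.

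On the deposited scale Nkd2 fell in o2 and Nkd1 was not called, whereas in TPM, where each library sums to 1000000, Nkd2 turned upward without a call and Nkd1 was called higher. The log2 fold changes in TPM were 1.22 for Nkd2 and 3.06 for Nkd1, beside a median of 2.55 over all tested genes. In TPM 18181 of the 18687 tested genes were called higher in o2, so the Nkd1 call there is not particular to Nkd1. Libraries were also scaled by their medians, by quantiles and by the total of genes under 1000 RPKM. There Nkd2 was at -1.31, -1.32 and -1.35 (adjusted p of 0.0454, 0.0335 and 0.0271 in limma), and Nkd1 was not called. Nkd2 went from 6.995 ± 2.21 RPKM in WT to 2.75 ± 0.567 RPKM in o2 (SD of 3 libraries each), or to 39.3% of its WT level. Its log2 fold change was -1.29 ± 0.25 (SE), with a 95% interval of -1.90 to -0.69 and a limma adjusted p of 0.0476 over all 18687 genes. Nkd1 had a mean of 15.9 ± 6.79 RPKM in WT and 20.9 ± 1.28 RPKM in o2 (SD of 3 libraries each). Its log2 fold change was 0.51 ± 0.35 (SE), with a 95% interval of -0.34 to 1.35 and an adjusted p of 0.505 in the limma fit. That interval leaves room for a fall of 0.34 as well as for a rise of 1.35 on the log2 scale.

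Of all tested genes, 3.56% were called in either direction and 2.07% were called lower and 1.49% higher in o2. The genotypes did not overlap in 26.1% of the tested genes, and in 11.7% all o2 values lay below all WT values. The adjusted p of Nkd2 lay close to the threshold of 0.05. Its log2 fold change was the 450th lowest of 18687, and 2.4% of the tested genes had a lower one, while 89.7% had a lower one than Nkd1. By level, Nkd2 ranked above 78.4% of the tested genes in the WT mean and above 48.2% in the o2 mean. Nkd1 ranked above 91.1% in the WT mean and 93% in the o2 mean.

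**Figure D2:**
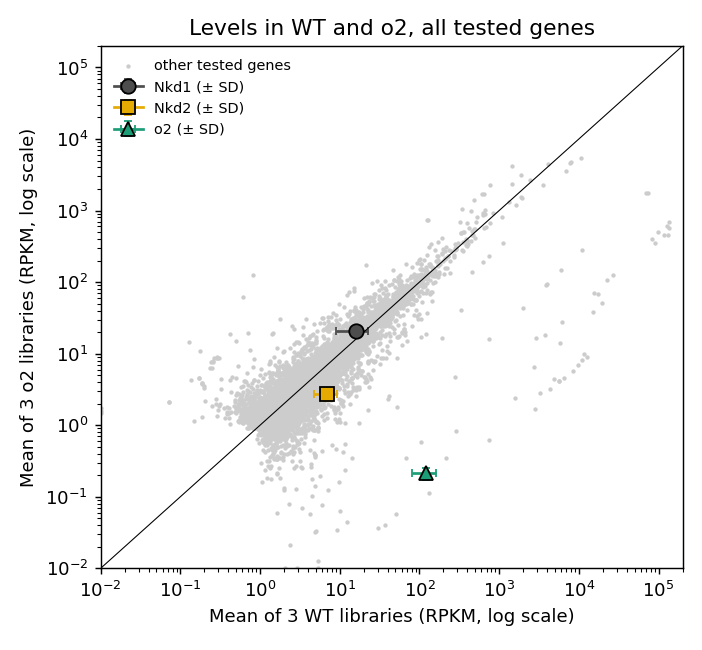
Mean RPKM of 3 WT libraries against the mean of 3 o2 libraries for the 18687 tested genes, on log axes, with SD bars on the marked genes and means under 0.01 drawn at 0.01. Nkd1 lies beside the line of equal levels at 15.9 and 20.9 RPKM, Nkd2 lies below it at 6.995 and 2.75 RPKM, and o2 lies far below it at 121 and 0.213 RPKM.

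The Nkd2 call was not stable when a library was left out, and it also ended with eBayes variance moderation without a trend (adjusted p = 0.0502 in limma). Nkd2 was called without WT replicate 3 (adjusted p = 0.0492 in limma) and in none of the other 5 such fits. Without WT replicate 1 or 2 its adjusted p in limma was 0.130 and 0.0517, and without o2 replicate 1, 2 or 3 it was 0.136, 0.166 and 0.0948. Its log2 fold change stayed between -1.47 and -1.05 in those 6 fits. Relative to the median of all tested genes in TPM, the log2 fold change was -1.33 for Nkd2 and 0.51 for Nkd1.

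**Figure D3:**
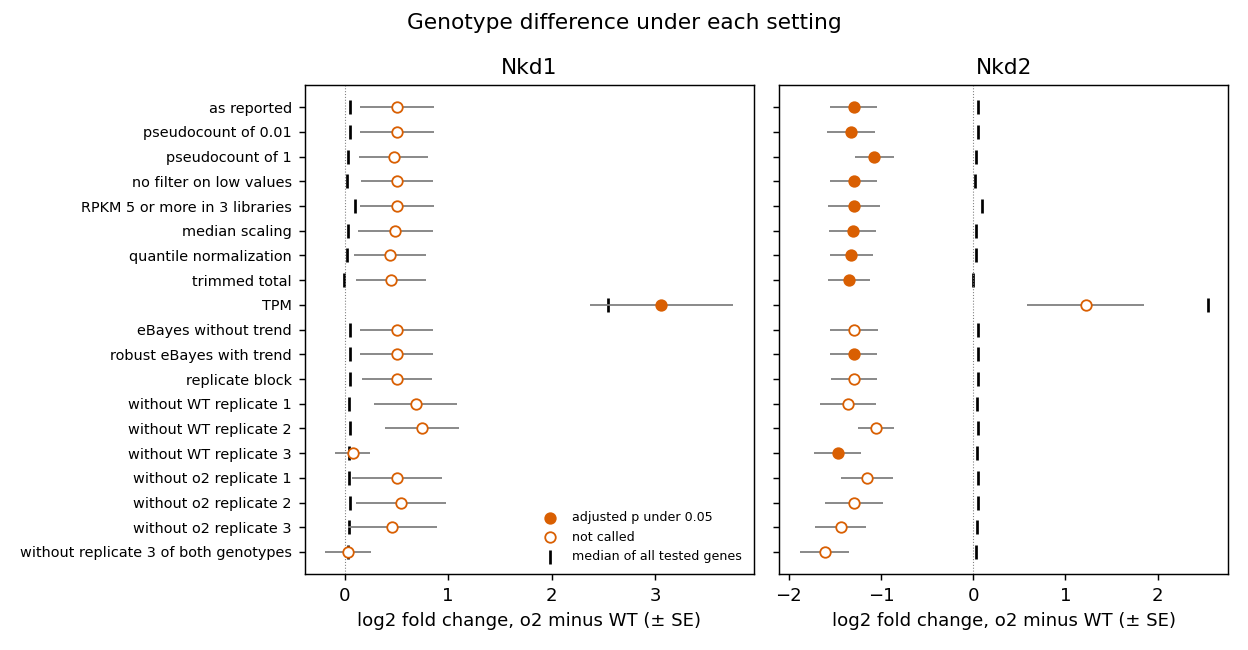
Log2 fold change of Nkd1 and of Nkd2, o2 minus WT, under each processing setting (bars are SE, filled points have a limma adjusted p under 0.05, and black ticks mark the median of all tested genes). Nkd2 lies between -1.61 and -1.05 except in TPM, where it is at 1.22 and the median gene at 2.55, and Nkd1 lies at 0.08 without WT replicate 3.

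The spread of Nkd1 among WT libraries rested on 1 library. Nkd1 varied by 2.54 times between the lowest and the highest WT library and by 1.13 times among the o2 libraries. Its SD on the log2 scale was 0.74 in WT, larger than that of 93.3% of the tested genes, and 0.09 in o2, larger than that of 17.6%. Without WT replicate 3 the log2 fold change of Nkd1 was 0.08 ± 0.17 (SE, adjusted p = 0.855 in limma). For Nkd2 the highest library was 1.79 times the lowest in WT and 1.52 times in o2.

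The balance between the duplicates was compared within each library, where the scale of the library plays almost no part. The level of Nkd1 was 3.06, 2.171 and 1.53 times that of Nkd2 in the WT libraries, and 9.49, 7.24 and 6.67 times in the o2 libraries. Nkd1 was thus the higher duplicate in 6 of 6 libraries, with a mean log2 ratio of Nkd2 to Nkd1 of -2.002 ± 1.05 (SD, n = 6; exact two-sided sign-flip permutation p = 0.0312, the smallest that 6 libraries allow). The ratio was lower in all 3 o2 libraries than in any WT library.

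Nkd2 contributed less of the summed level in the mutant libraries. Its share of the sum of both genes was 24.6%, 31.5% and 39.6% in the WT libraries and 9.53%, 12.1% and 13.04% in the o2 libraries. The share averaged 31.9% ± 7.47 over the WT libraries and 11.6% ± 1.82 over the o2 libraries (SD of 3 libraries each), a difference of -20.3 percentage points. On the log2 scale the ratio of Nkd2 to Nkd1 was -1.10 ± 0.50 in WT and -2.90 ± 0.26 in o2 (SD of 3 libraries each), a difference of -1.80 ± 0.32 (SE). This difference is the test of whether the genotype differences of the duplicates differ from each other. Its exact two-sided permutation p was 0.1, which is the smallest that 3 against 3 libraries allow, so this test cannot pass 0.05 here. The difference was -1.84 in TPM and -1.76 after quantile normalization, and it stayed between -2.04 and -1.55 when any 1 library was left out. Scaling a whole library hardly moves this ratio, and without overlap between the genotypes leaving out 1 library cannot reverse it.

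**Figure D4:**
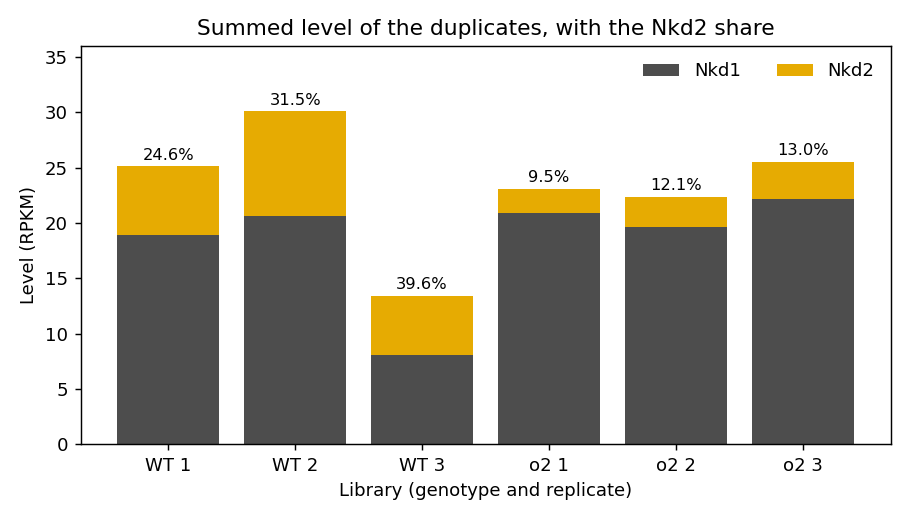
Stacked bars of the Nkd1 and Nkd2 levels in RPKM for each library, with the Nkd2 share of the sum printed above. The share is 24.6% to 39.6% in WT and 9.53% to 13.04% in o2, while the summed level overlaps between the genotypes on this deposited scale.

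On the deposited scale the summed level of both genes overlapped between the genotypes. It was 25.1, 30.1 and 13.4 RPKM in the WT libraries and 23.1, 22.4 and 25.5 RPKM in the o2 libraries. The means were 22.9 ± 8.57 RPKM in WT and 23.7 ± 1.67 RPKM in o2 (SD of 3 libraries each), and the log2 difference was 0.13 ± 0.36 (SE; exact two-sided permutation p = 0.9). Without WT replicate 3 the log2 difference was -0.22 (exact permutation p = 0.4), so its sign rested on that library. In TPM the log2 difference of the sum was 2.68 (exact permutation p = 0.1, the smallest that 3 against 3 libraries allow), beside the median of 2.55 over all tested genes. Reads that fit both duplicates could move values between them, and their handling in the counting was not stated in the labels. Multiply mapped reads were 32.7% ± 5.88 of all reads in WT and 21.2% ± 0.462 in o2 (SD of 3 libraries each), and their part in the balance of the duplicates was not tested.

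Levels of the o2 gene and of the duplicates did not run in the same order among the WT libraries. WT replicate 3 had the highest o2 level, 163 RPKM, with the lowest Nkd1 level, 8.10 RPKM, and the lowest Nkd2 level, 5.30 RPKM. WT replicate 2 had the lowest o2 level, 86.1 RPKM, with the highest Nkd1 and Nkd2 levels, 20.6 and 9.49 RPKM. The summed RPKM and the multiply mapped share of the WT libraries ran in the same order as o2. Multiply mapped reads were 38.6% in WT replicate 3 and 26.9% in WT replicate 2. With 3 libraries these orders are a description.

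Markers of other kernel tissues differed between the libraries as well. In bulk tissue, fewer cells of a type and less RNA per cell cannot be told apart. The 3 IDs found for the embryo list, the oleosin genes ole1 (GRMZM2G337229) and ole17 (GRMZM2G480954) of oil bodies and the globulin gene glb1 (GRMZM2G067919), summed to 49.9, 131 and 91.5 RPKM in the WT libraries and to 28.8, 23.5 and 4.49 RPKM in the o2 libraries. All o2 sums were below all WT sums, as for Nkd2, and 11.7% of the tested genes were separated in this way. By gene, ole1 and ole17 were separated and glb1 was not. The level of glb1 was 3.799 RPKM in WT replicate 1 against 5.86 and 6.04 RPKM in o2 replicates 1 and 2. Within o2 the sum ran opposite to Nkd2, which rose from 2.20 RPKM in replicate 1 to 3.33 RPKM in replicate 3. Oleosins are also made in the aleurone, so this list does not mark the embryo alone. In limma 0 of the 3 genes were called, and the smallest adjusted p was 0.108. The median log2 fold change was -2.48 against 0.05 over all tested genes. At an unadjusted p under 0.05 were 2 of the 3, a level whose share over all tested genes was not counted. The part of these tissues in the Nkd2 fall was not tested.

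The basal transfer layer list, genes of the cells that take up nutrients at the kernel base, was low in WT replicate 3. Its 7 IDs, which include betl1 (GRMZM2G082785) and the invertase gene mn1 (GRMZM2G119689), summed to 177, 71.6 and 4.14 RPKM in the WT libraries and to 50.4, 165 and 23.6 RPKM in the o2 libraries. WT replicate 3 was thus lowest for the sum of this list and also lowest for Nkd1. The 6 tested genes of the list were each lowest there. Its other member, mrp1, was highest there, at 0.398 RPKM, which is under the level needed for the test. The o2 library with the lowest sum, replicate 3, had the highest Nkd1 level among the o2 libraries, 22.2 RPKM. In limma 0 of the 6 tested genes were called, 0 of them at an unadjusted p under 0.05. In WT replicate 3 the level of mn1 was 0.0143 RPKM and that of betl1 was 2.94 RPKM, and no ID of the embryo or basal transfer layer lists was at 0 in all libraries. The part of this tissue in the low Nkd1 value was not tested.

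**Figure D5:**
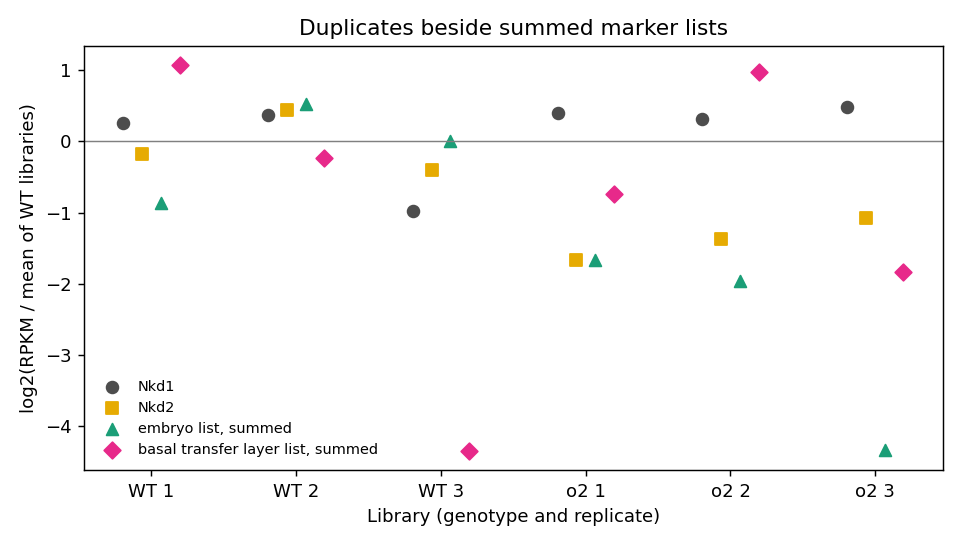
Levels of Nkd1 and Nkd2 and the summed levels of the embryo and basal transfer layer lists in each library, as log2 of RPKM over the mean of the WT libraries. Nkd1 and the basal transfer layer list are both lowest in WT replicate 3, and Nkd2 and the embryo list both lie lower in the o2 libraries on this deposited scale.

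Other regulators of the aleurone and outer cell layer were mostly low. Of 15 symbols in this list, 6 gave a gene ID with values and 3 of those were tested, with 0 called in limma and 0 at an unadjusted p under 0.05. Their log2 fold changes ran from -0.21 to 0.16, with a median of 0.13 against 0.05 over all tested genes. They were Sal1 (GRMZM2G117935), a vesicle sorting gene that restricts aleurone to its layer, at 8.67 ± 0.946 RPKM in WT and 7.46 ± 0.679 in o2 (SD of 3 libraries each), the receptor kinase gene cr4 (GRMZM2G051637), at 1.41 ± 0.138 and 1.599 ± 0.295 RPKM (SD of 3 libraries each), and the calpain gene dek1 (GRMZM2G321753), at 1.45 ± 0.261 and 1.59 ± 0.320 RPKM (SD of 3 libraries each). Both cr4 and dek1 are needed for aleurone identity.

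The other 3 genes of the list were under the level needed for the test, and the o2 values of each lay below its WT values. The same held for 15.7% of the 9893 gene IDs under that level. The seed maturation regulator vp1 (GRMZM2G133398) had 0.467, 0.973 and 0.775 RPKM in the WT libraries and 0.241, 0.257 and 0.0171 RPKM in the o2 libraries. The homeodomain gene ocl1 (GRMZM2G026643), named for the outer cell layer, averaged 0.350 ± 0.142 RPKM in WT and 0.0927 ± 0.0454 in o2 (SD of 3 libraries each). Its relative ocl5 (GRMZM2G130442) had 0.413 ± 0.222 and 0.0923 ± 0.0748 RPKM (SD of 3 libraries each). In the limma fit without a filter on low values none of these 3 was called (adjusted p of 0.105 for vp1, 0.0609 for ocl1 and 0.147 for ocl5). Of the aleurone pigment genes of the anthocyanin list, 4 matched IDs had values, 2 were tested and 0 were called in limma, 0 at an unadjusted p under 0.05. The 2 tested were matches to pac1 (GRMZM2G058432) and a2 (GRMZM6G474234), at log2 fold changes of -0.02 and -0.03. Each of these symbols is borne by 2 reference genes, so which IDs are the pigment genes is uncertain. All 4 IDs had a lower mean in o2. In the 2 untested ones every o2 value lay below every WT value, as in 15.7% of all IDs under that level, and neither was called without the filter. The level of a1 (GRMZM2G026930), for dihydroflavonol reductase, was 0.634, 2.38 and 0.504 RPKM in the WT libraries and 0.494, 0.441 and 0.0203 RPKM in the o2 libraries (adjusted p = 0.311 in limma without the filter). An ID of pac1 (GRMZM2G058292), a regulator of the pigment pathway, had 0.840, 0.701 and 0.9753 RPKM in the WT libraries and 0.481, 0.559 and 0.646 RPKM in the o2 libraries (adjusted p = 0.181 in limma without the filter).

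Of 8 IDs found for transcription factor genes of the endosperm, 5 were tested, and vp1, MADS47 and mrp1 were under the level needed. Of the 5, 1 was called, the mutated o2 gene, where 3.56% of all tested genes were called. A gene ID of the prolamin-box factor gene pbf1 (GRMZM2G146283), an activator of zein genes, had 19.96, 17.5 and 16.4 RPKM in the WT libraries and 23.5, 38.4 and 44.2 RPKM in the o2 libraries (log2 fold change 0.93, adjusted p = 0.115 in limma). The other pbf1 ID, GRMZM2G146267, averaged 4.87 ± 1.17 RPKM over the WT libraries and 5.17 ± 0.357 RPKM over the o2 libraries (SD of 3 libraries each; log2 fold change 0.11, adjusted p = 0.821 in limma). The O2 heterodimerizing protein genes ohp1 (GRMZM2G016150) and ohp2 (GRMZM2G007063) were at -0.13 and 0.11 (log2 fold change, adjusted p of 0.653 and 0.757 in limma). Like the NKD genes they are known as duplicates. The mrp1 gene (GRMZM2G113203), a regulator of basal transfer layer genes, was under the level needed for the test, with 0.311, 0.224 and 0.398 RPKM in the WT libraries and 0.1001, 0.116 and 0.0549 RPKM in the o2 libraries. In limma without the filter it was called lower (log2 fold change -1.10, adjusted p = 0.0372), as were 2.06% of the 28580 gene IDs. MADS47 (GRMZM2G099577) lay at 0.74 and was not called in that fit (adjusted p = 0.153 in limma).

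The genes closest in pattern were looked up by Pearson's r of log2(RPKM + 0.1) with each duplicate over the 6 libraries, among 1290 tested genes with a name. With 6 libraries in 2 genotypes a high r is a description only. Over all tested genes 57 had an r above 0.95 with Nkd1 and 82 with Nkd2, and r between the duplicates was -0.22. The named genes closest to Nkd2 were a gene of pyruvate phosphate dikinase (GRMZM2G097457, PPDK2), an enzyme of carbon metabolism, with r = 0.983, RPL19 (GRMZM5G887054) with 0.969, CLA1 (GRMZM2G019260) with 0.959, TAR3 (GRMZM2G141810) with 0.955 and ALDH12 (GRMZM2G090087) with 0.954. In each of these, all o2 values lay below all WT values, as in 11.7% of the tested genes, and only TAR3 was called. TAR3 went from 42.1 ± 5.97 to 14.8 ± 2.88 RPKM (SD of 3 libraries each; log2 fold change -1.51, adjusted p = 0.0172 in limma). It was not called without WT replicate 1 or any 1 o2 library (largest adjusted p 0.0679 in limma). In TPM it stood at 1.05, below the median gene. PPDK2 had 602, 971 and 636 RPKM in the WT libraries and 157, 206 and 323 RPKM in the o2 libraries, the same order of libraries within o2 as Nkd2 (adjusted p = 0.0585 in limma).

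The named genes closest to Nkd1 were SMC3 (GRMZM2G456570) with r = 0.943, PDK1 (GRMZM2G097821) with 0.935, mTRF12 (GRMZM2G062910) with 0.932, Ots1c (GRMZM2G142553) with 0.930 and SIP-1 (GRMZM2G091494) with 0.923. Each of them was lowest in WT replicate 3, like Nkd1. The level of SMC3, for a cohesin subunit, was 3.22, 3.08 and 2.69 RPKM in the WT libraries and 3.23, 3.06 and 3.24 RPKM in the o2 libraries, a far smaller range than that of Nkd1.

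Genes lying near the duplicates were examined as well, a choice made after the values of the duplicates were known. Gene order followed the start positions of Zm-B73-REFERENCE-NAM-5.0, used for order only, and 5 gene IDs with values were taken on each side. Only the 12658 of 28580 gene IDs that paired with a reference gene could be taken, so closer genes may have been skipped. Of 10 neighbours of Nkd2, 7 were tested and 1 was called in limma, where 3.56% of all tested genes were called. At an unadjusted p under 0.05 were 3 of the 7, with limma adjusted p of 0.0269, 0.176 and 0.196. The share of all tested genes at that unadjusted level was not counted, so counts at this level are not read as an excess. Such p-values were common, since an unadjusted p of 0.0279 had an adjusted p of 0.196 in limma. Log2 fold changes ran from -1.54 to 0.01 with a median of -0.25, against 0.05 over all tested genes. The called neighbour, GRMZM2G112057, was the outermost on its side and went from 1.54 ± 0.502 to 0.445 ± 0.0338 RPKM (SD of 3 libraries each; log2 fold change -1.54, adjusted p = 0.0269 in limma). It was not called without WT replicate 1 or any 1 o2 library (largest adjusted p 0.104 in limma), and in TPM it stood at 0.77, below the median gene. The nearest tested one of those taken, GRMZM2G455171, lay at a log2 fold change of 0.01 (adjusted p = 0.991 in limma). Of 10 neighbours of Nkd1, 7 were tested and 0 were called in limma. At an unadjusted p under 0.05 were 2 of the 7, with limma adjusted p of 0.125 and 0.197. Their 7 log2 fold changes ran from -0.52 to 0.39 with a median of -0.06.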

How the data were processed

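The authors deposited RPKM for each gene ID and RNA library. Per the submitters' processing notes, the build was B73 RefGen_v3 and the tools were Bowtie2 2.1.0, TopHat2 2.0.9, MACS2 2.1.0.20140616, edgeR 3.2.4, Trimmomatic and bedtools 2.17.0, whose roles are not recorded there. Read counts per library by mapping class were deposited by the authors in a second table. O2 ChIP peaks were not used, since no annotation of that build was used to place them at the duplicates.

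Genes with 1 RPKM or more in at least 3 of 6 libraries were fitted as log2(RPKM + 0.1) with limma 3.58.1 in R 4.3.3 (lmFit, eBayes with trend, genotype as the only term), and a gene was called where its Benjamini-Hochberg adjusted p over all tested genes was under 0.05. Fold changes on this scale understate those of low genes. The step was tested on simulated data with larger changes than that of Nkd2 and no outlying library. That does not check a call as small as the Nkd2 call. Ratios and sums of the duplicates were tested with exact permutation tests over libraries (scipy 1.17.1). Names came from a reference gene table that paired 12658 gene IDs, and list symbols were matched to its names. The genes named are the duplicates, o2, called and abundant list members, and 5 genes closest in pattern to each duplicate. The duplicates and the lists were chosen with earlier results of these data known. No protein or promoter sequence was used here.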

Additional observations from a re-analysis of the deposited data

How the results depend on the processing

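The number of called genes was 1051 without a filter on low values, 322 with a minimum of 5 RPKM, 18271 in TPM and 340 with the replicate block, against 666 as reported, and 98 to 777 with 1 library left out. With replicate 3 dropped from WT and o2 alike, which was tried after the data had been seen, 299 genes were called. In TPM 18181 genes were called higher in o2, Nkd1 among them at a log2 fold change of 3.06. Nkd2 turned to 1.22 in TPM, with the median gene at 2.55. Nkd2 was at -1.29 and not called with eBayes without trend (limma adjusted p = 0.0502) or with the replicate block (adjusted p = 0.0868), and at -1.61 and not called without replicate 3 of both genotypes (adjusted p = 0.0581). It was called under the other 8 of 11 alternatives that keep all libraries, and lay between -1.47 and -1.05 with 1 library left out. The summed level was 2.68 higher in o2 on the log2 scale in TPM (exact permutation p = 0.1), beside the median gene at 2.55. It turned to -0.27 without replicate 3 of both genotypes and ran from -0.22 to 0.36 with 1 library left out. The log2 ratio of Nkd2 to Nkd1 within libraries ran from -2.28 to -1.76 with 1 library left out, where 5 libraries allow no exact permutation p under 0.0625. The genotype difference in that ratio kept its direction under all 14 alternatives run, but most of these could not have reversed it. Scaling whole libraries hardly moves a ratio within a library, and the replicate block leaves the difference unchanged. Leaving out libraries cannot reverse it either, since the genotypes did not overlap. With pseudocounts of 0.01 and 1 and with quantile normalization it was -1.83, -1.54 and -1.76. The cause of these changes was not tested. Whether same-numbered libraries are pairs could not be settled from these values. The correlations of same-numbered deviations were -0.02, 0.06 and 0.32, and only replicates 3 correlated best with their own number. The 3 libraries per genotype and the unknown read number per gene limit the precision.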

Other observations

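Genes of the embryo-surrounding region, the endosperm cells next to the embryo, were high in replicate 2 of both genotypes. ESR1 (GRMZM2G315601) had 0.317, 9.57 and 0.328 RPKM in the WT libraries and 0.970, 6.60 and 0.680 RPKM in the o2 libraries. The level of esr6 (GRMZM2G048353) was 0.359, 4.24 and 0.243 RPKM in the WT libraries and 0.902, 3.15 and 0.637 RPKM in the o2 libraries. Both duplicates were highest in replicate 2 within WT, at 20.6 RPKM for Nkd1 and 9.49 RPKM for Nkd2, and neither was within o2.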
